A study of Mus musculus with 15 samples.

Results

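The genes described here are 45 genes of the mitotic and cell cycle machinery, from the cyclins and replication licensing factors to the kinases, motors and centromere proteins of mitosis. They were chosen by name, with earlier results of these data known, and read in primary mouse hepatocytes on 15 Affymetrix mouse expression arrays. A gene was followed through probe sets annotated with its symbol alone, and the probe set with the highest mean over the 15 arrays stood for it. That gave 44 of the 45 genes, out of 18193 genes on the array named in this way; Ccnb1 was not analysed here. All 44 passed the filter on dim signals, which asked for a log2 signal of at least 4 in at least 3 arrays and left 16294 genes to test. Esco2 and Bub1 reached that signal in 13 arrays each, 10 of them outside the group where they were highest, and the others in all 15.

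The hepatocytes came from C57BL/6 mice, were kept in the serum-free medium HepatoZYME-SFM, and were infected with 1 of 5 adenoviruses, with 3 arrays per virus. For 48 hours, without any further treatment, cells carried EGFP (a fluorescent control protein), IRE1a in its wild-type form, or the S724A form, where alanine stands in place of a serine. For 72 hours, cells carried a control hairpin or a hairpin that knocks down IRE1a, and both of these groups then received glucagon for 4 hours. IRE1a, the product of Ern1, is a kinase and RNase in the membrane of the endoplasmic reticulum that responds to unfolded protein. The series text states that the work was done in 3 independent experiments. Whether hepatocytes were pooled over animals, and the promoters and doses of the viruses, are not stated here.

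A dividing cell moves through an ordered programme of transcription. Cyclin D and CDK4 start the release of E2F, which switches on the genes of replication licensing and DNA synthesis; cyclin E and CDK2 act at the start of S phase, and cyclin A, cyclin B and CDK1 drive the later steps. The genes of mitosis come on afterwards, in G2, under a repressor and activator system (DREAM, B-Myb and FoxM1) that acts through CHR and CCAAT elements, while many S phase genes carry E2F sites. Adult hepatocytes are mostly quiescent, enter the cycle after partial hepatectomy, and in culture often replicate DNA without completing division.

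The 2 classes of promoter are shown here because the genes of mitosis and of DNA replication moved differently in these arrays. Each sequence is the 160 bases just before the annotated start of the gene, from RefSeq on GRCm38.p6, written 5′ to 3′ on the gene's strand. Capitals mark CHR (TTTGAA or TTCGAA) and CCAAT matches on either strand in the first 3, which belong to the mitotic genes Cdc20 (chr4:118437344-118437503, minus strand), Ube2c (chr2:164769769-164769928, plus strand) and Top2a (chr11:99024190-99024349, minus strand). In the other two, Mcm6 (chr1:128359706-128359865, minus strand) and Cdk2 (chr10:128705052-128705211, minus strand), capitals mark only the E2F forms TTTCGCGC, TTTGGCGC, TTTCCCGC or TTTGCCGC on either strand. These 5 were picked for display after the values and the matches had been seen.
Cdc20: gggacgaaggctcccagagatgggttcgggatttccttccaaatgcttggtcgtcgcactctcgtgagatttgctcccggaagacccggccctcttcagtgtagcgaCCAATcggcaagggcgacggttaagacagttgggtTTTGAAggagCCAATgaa
Ube2c: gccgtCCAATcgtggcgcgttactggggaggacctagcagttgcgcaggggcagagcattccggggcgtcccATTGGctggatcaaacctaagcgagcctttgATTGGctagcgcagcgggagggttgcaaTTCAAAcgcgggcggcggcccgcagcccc
Top2a: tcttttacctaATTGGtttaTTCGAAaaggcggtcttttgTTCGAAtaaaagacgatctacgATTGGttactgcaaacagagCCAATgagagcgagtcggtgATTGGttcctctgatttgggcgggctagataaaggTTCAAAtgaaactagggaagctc
Mcm6: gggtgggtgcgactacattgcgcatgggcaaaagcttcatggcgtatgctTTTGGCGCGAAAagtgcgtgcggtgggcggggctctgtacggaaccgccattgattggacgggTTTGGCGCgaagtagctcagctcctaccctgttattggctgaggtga
Cdk2: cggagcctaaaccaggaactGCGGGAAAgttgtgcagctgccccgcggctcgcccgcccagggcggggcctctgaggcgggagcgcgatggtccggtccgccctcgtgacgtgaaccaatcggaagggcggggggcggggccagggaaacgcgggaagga

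Over the window from 250 bases before to 50 bases after the start, the promoter table held 39 windows for 36 of the 45 genes, without Mcm4, Aurkb, Tpx2, Ccnd1, Ccna2, Esco2, Gmnn, Ccne2 and Kif20a. For 18 of the 21 mitosis genes there were 19 windows, of which 15 (78.9%) held a CHR match and 16 (84.2%) a CCAAT match, and 15 held both. For 10 of the 13 licensing and DNA synthesis genes there were 11 windows, of which 2 (18.2%) held a CHR match, 8 (72.7%) a CCAAT match and 6 (54.5%) an E2F form. None of the 19 mitosis windows held 1 of the 4 E2F forms. Among all 32851 promoters of the table the shares were 19.2% for CHR, 37.4% for CCAAT, 7.5% for both and 2.3% for the E2F forms. In Cdc20 the CHR match began 18 bases before the start, and in Mcm6 the E2F forms began 110, 106 and 47 bases before it, the first 2 overlapping. A match is a run of letters, and binding was not measured.

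Ern1 checked the labels first. Its log2 signals were 8.89, 8.96 and 9.10 with the control hairpin and 7.60, 7.44 and 7.51 with the IRE1a hairpin, a difference of -1.47 ± 0.19 (SE, 3 arrays per group, adjusted p = 0.00293). With wild-type and S724A IRE1a the Ern1 probe set differed from EGFP by 0.12 ± 0.19 (adjusted p = 0.775) and 0.46 ± 0.19 (adjusted p = 0.159, or 0.0362 without EGFP replicate 1). Whether the viral messages carry the sequence of that probe set is not stated in the labels, so it does not check those 2 labels. Array medians lay between 5.69 and 5.83. The hepatocyte genes Alb, Ttr and Apoa1 had mean log2 signals of 14.34, 13.84 and 13.57, and of the markers listed for other liver cells only Cd68 and Vim exceeded 10 on average, at 11.74 and 10.29.

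The number 3 arrays of the 48-hour groups stood apart from the others of their group in these genes. Of the 21 genes of mitosis, 21 were highest in replicate 3 of the wild-type group, 21 in replicate 3 of the S724A group and 16 in replicate 3 of the EGFP group. As a level for the 21 genes, the median of each array's difference from the gene's mean over 15 arrays was -0.81, -0.95 and -0.41 with EGFP. It was 0.02, 0.59 and 1.87 with wild-type IRE1a and -0.29, 0.05 and 1.59 with S724A IRE1a, in replicates 1, 2 and 3. The 3 EGFP arrays lay below all 6 arrays of the IRE1a viruses. With the control hairpin the levels were -0.36, -0.55 and -0.06, and with the IRE1a hairpin -0.07, -0.16 and -0.39. Within an arm, arrays of 1 replicate number deviated together, so comparisons within an arm are also given with the replicate number as a block.

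**Figure D1:**
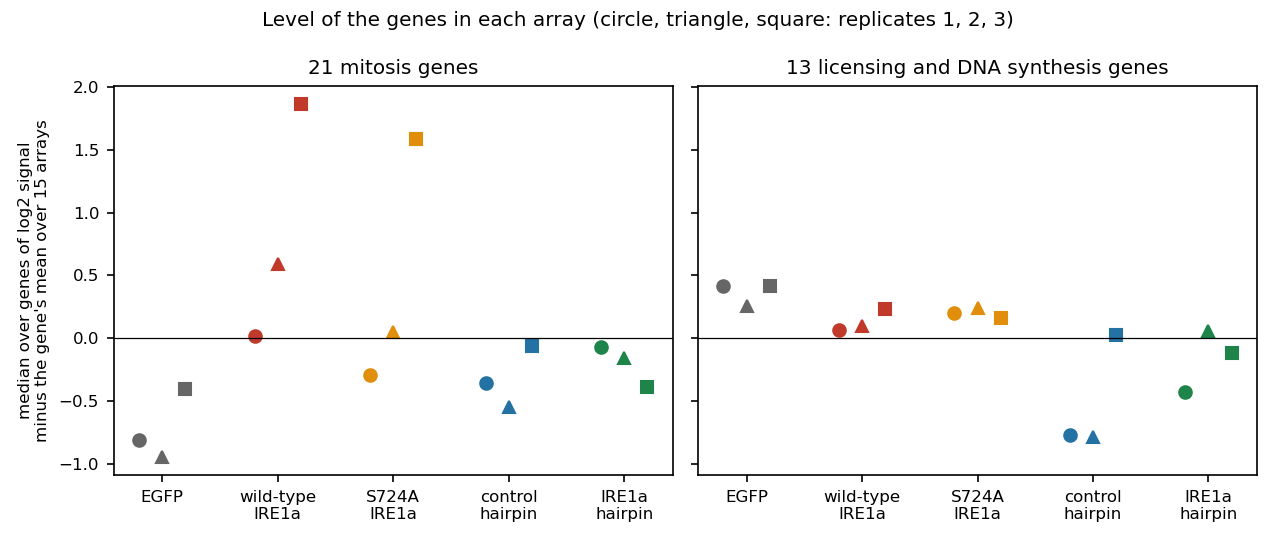
Level of the 21 mitosis genes (left) and the 13 licensing and DNA synthesis genes (right) in each of the 15 arrays, as the median over genes of the log2 signal minus the gene's mean over 15 arrays; circle, triangle and square are replicates 1, 2 and 3. On the left the 3 EGFP arrays (-0.81, -0.95 and -0.41) lie below the wild-type and S724A arrays, whose replicate 3 is highest (1.87 and 1.59). On the right the lowest points are control hairpin replicates 1 and 2 (-0.78 and -0.79).

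The first question was what the virus carrying wild-type IRE1a changed, relative to EGFP. Genes of mitosis were higher with wild-type IRE1a: the kinases Aurkb and Aurka, the centromeric histone Cenpa, cyclin B2 and the mitotic activator Cdc20 each rose by about 1.5 to 1.9 on the log2 scale. In all, 13 of the 44 genes rose and 0 fell, and 10 of the 13 that rose were among the 21 genes of mitosis. Over all genes tested, 5.08% rose and 2.59% fell, so that 66.2% of the calls were rises (55.4% after quantile normalisation and 70.1% after median centring). The median change was 0.85 over the 44 genes and 1.53 over the 21 genes of mitosis, against 0.003 over all genes. The MCM helicase genes, which license replication origins, did not share this: their differences lay between -0.49 and -0.30, and none of the 6 passed the test. Since these are bulk samples, fewer cells of a type and less RNA per cell cannot be told apart.

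With the replicate number as a block, 24 of the 44 genes rose and 2 fell, against 10.6% and 4.99% of all genes. These included all 13 of the genes named as risen, and 17 of the 21 genes of mitosis. In 30 of the 44 genes all 3 same-number pairs of arrays were higher with wild-type IRE1a, and in 8 all 3 were lower. Such pairs were not counted over all genes, so these counts have no background to be read against. In 25 genes all 3 wild-type arrays lay above all 3 EGFP arrays, which held for 15.8% of all genes. The unblocked test had 25 genes higher and 3 lower at an unadjusted p under 0.05, against 13.3% and 8.12% of all genes.

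**Figure D2:**
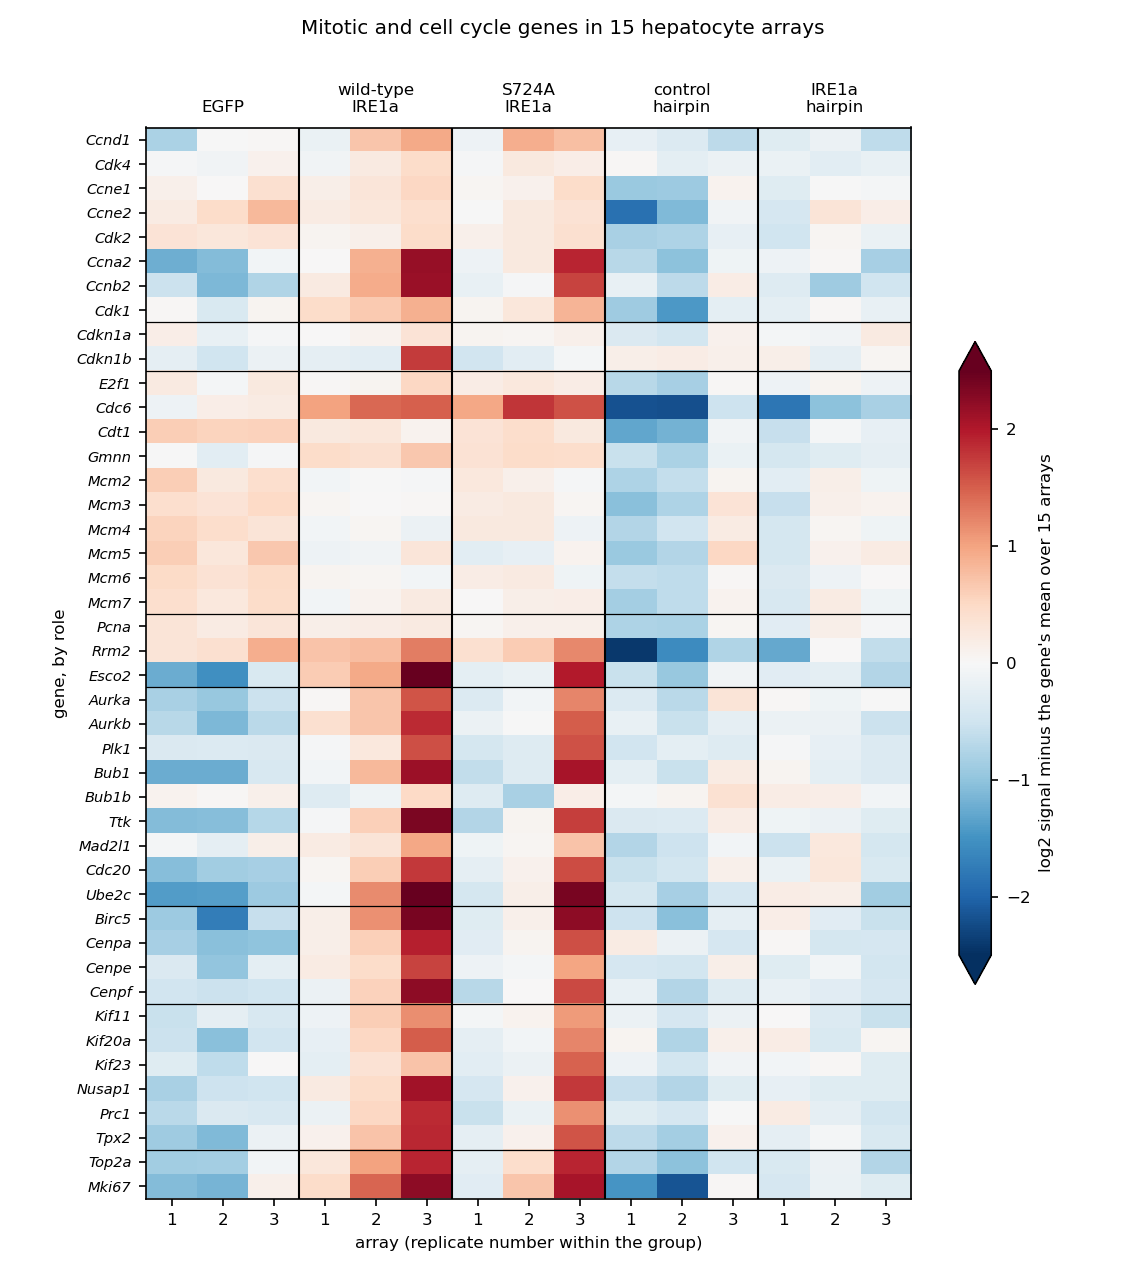
Log2 signal of each of the 44 genes (rows, ordered by role) in each of the 15 arrays (columns) minus the gene's mean over the 15 arrays; red is above and blue below that mean, and the colour scale ends at 2.5 in either direction. The mitosis rows, apart from Bub1b and parts of Mad2l1, Mki67 and Kif23, are blue in the EGFP columns, and they are red in replicate 3 of the wild-type and S724A columns; the licensing rows are blue in control hairpin replicates 1 and 2.

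Among the mitotic kinases, checkpoint genes and ubiquitin ligase factors, 5 of 9 rose. For Aurkb, the kinase of the chromosomal passenger complex, the log2 signals were 4.82, 4.41 and 4.85 with EGFP and 5.92, 6.22 and 7.38 with wild-type IRE1a. The change was 1.81 ± 0.39 (SE), or 3.52-fold (adjusted p = 0.0101). Every wild-type array lay above every EGFP array, and replicate 3 was the highest. For Aurka, the kinase of centrosomes and spindle poles, the signals were 7.16, 7.02 and 7.42 with EGFP and 7.99, 8.65 and 9.53 with wild-type IRE1a, a change of 1.53 ± 0.39 (adjusted p = 0.0273). Cdc20, which activates the anaphase-promoting complex, read 6.97, 7.16 and 7.20 with EGFP and 8.08, 8.65 and 9.80 with wild-type IRE1a. Its change was 1.73 ± 0.44 (3.32-fold, adjusted p = 0.0258), and the 2 groups did not overlap. All 3 of its probe sets passed the test, by 0.51 to 2.47. Ube2c, the E2 enzyme that works with that complex, rose by 2.5 ± 0.66 (adjusted p = 0.0312), and the checkpoint kinase Ttk by 1.93 ± 0.56 (adjusted p = 0.0491).

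The other four genes of this role did not pass. Bub1, a kinetochore checkpoint kinase, differed by 1.92 ± 0.60 (adjusted p = 0.0673, with EGFP replicates 1 and 2 below 4), and the mitotic kinase Plk1 by 0.97 ± 0.45 (adjusted p = 0.229). Plk1 read 6.53, 6.55 and 6.52 with EGFP and 6.85, 7.15 and 8.48 with wild-type IRE1a, where replicate 3 stood apart. Mad2l1, a checkpoint protein, differed by 0.54 ± 0.27 (adjusted p = 0.265). Bub1b, whose product BubR1 inhibits the anaphase-promoting complex, was the 1 gene of mitosis below 0, at -0.06 ± 0.23 (adjusted p = 0.921). With the replicate block Bub1 passed (adjusted p = 0.00110), and Plk1, Mad2l1 and Bub1b did not.

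Among the 4 genes of the chromosomal passenger complex and the centromere, 3 rose. For Birc5 (survivin), a passenger protein, the signals were 5.67, 4.84 and 5.99 with EGFP and 6.71, 7.71 and 8.94 with wild-type IRE1a, a change of 2.29 ± 0.60 (4.87-fold, adjusted p = 0.0298). Cenpa, the histone that marks the centromere, was tight with EGFP at 5.76, 5.56 and 5.59 and spread from 6.74 through 7.18 to 8.54 with wild-type IRE1a, a change of 1.85 ± 0.45 (adjusted p = 0.0188). Both groups were separate in these 2 genes. The rise of Cenpa rests on 1 of 3 probe sets, which differed by -0.14 to 1.85. When the 3 were averaged it was 0.59 (adjusted p = 0.0502). The kinetochore motor Cenpe rose by 1.31 ± 0.36 (adjusted p = 0.0386), or 0.77 when its 2 probe sets were averaged (adjusted p = 0.103), and the kinetochore protein Cenpf differed by 1.40 ± 0.54 (adjusted p = 0.141), with a blocked adjusted p of 0.0198.

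Of the 6 spindle and cytokinesis genes, Tpx2, which activates Aurora A on the spindle, rose by 1.60 ± 0.47 with an adjusted p of 0.04999. It has 4 probe sets, with changes from -0.40 to 1.60, and 0 of them passed when all probe sets were tested; their mean differed by 0.52 (adjusted p = 0.123). The spindle protein Nusap1 differed by 1.53 ± 0.48 (adjusted p = 0.0684), the kinesin Kif20a by 1.29 ± 0.42 and the midzone protein Prc1 by 1.23 ± 0.44. The kinesins Kif11, which separates spindle poles, and Kif23, which acts in cytokinesis, differed by 0.95 ± 0.30 and 0.59 ± 0.36. Another of the 3 probe sets of Kif11 passed, at 1.70 ± 0.41 (adjusted p = 0.0250 over all probe sets). With the replicate block Nusap1, Kif20a, Prc1 and Kif11 passed as well (adjusted p from 0.00364 to 0.0115), and Kif23 did not (0.126). Top2a, the topoisomerase that untangles chromosomes, rose by 1.66 ± 0.46 (adjusted p = 0.0407) on 1 of 3 probe sets, which ranged from -0.16 to 1.66, with a mean that differed by 0.57 (adjusted p = 0.160). Mki67, the proliferation marker Ki-67, read 6.49, 6.41 and 7.72 with EGFP and 8.04, 9.04 and 9.82 with wild-type IRE1a, without overlap, and just missed the threshold (2.10 ± 0.61, adjusted p = 0.0520, blocked 0.00155).

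**Figure D3:**
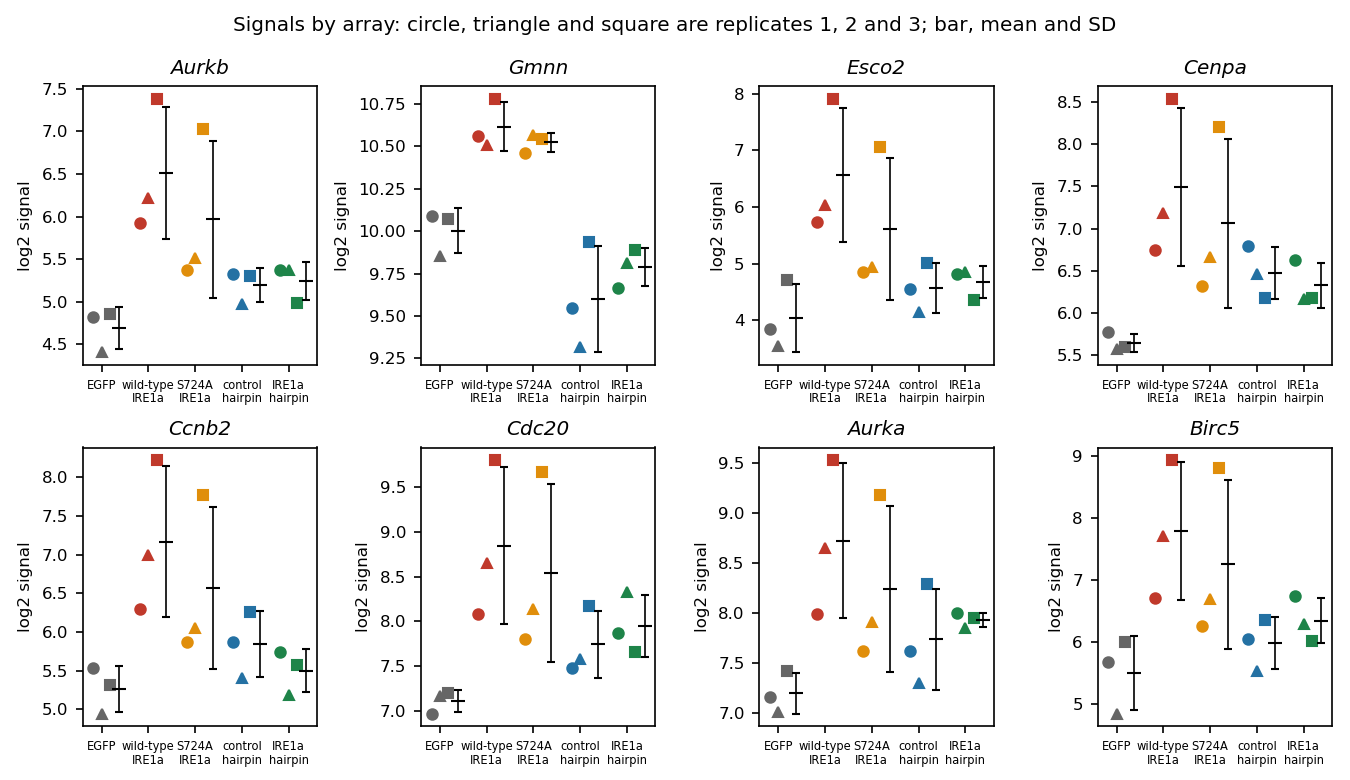
Log2 signal in each array, by group, of the 8 genes with the smallest p for wild-type IRE1a against EGFP; circle, triangle and square are replicates 1, 2 and 3, and the bar beside them is the mean and SD of the 3 arrays. In every panel the 3 wild-type arrays lie above the 3 EGFP arrays, as with Aurkb (5.92 to 7.38 against 4.41 to 4.85); each panel has its own scale.

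Of the 8 cyclins and CDKs, 1 rose. Ccnb2, a mitotic cyclin, read 5.54, 4.94 and 5.31 with EGFP and 6.29, 6.995 and 8.22 with wild-type IRE1a, a change of 1.91 ± 0.48 (3.75-fold, adjusted p = 0.0241). Ccna2, the cyclin of S phase and G2, differed by 1.81 ± 0.55 (adjusted p = 0.0594, blocked 0.00103). Its other probe set passed, at 2.02 ± 0.50 (adjusted p = 0.0275 over all probe sets). Cdk1 differed by 0.76 ± 0.26 (adjusted p = 0.0891, blocked 0.0333). Ccnd1, the cyclin of early G1, differed by 0.75 ± 0.31 (adjusted p = 0.178, blocked 0.000695), with overlapping groups and differences of 0.62, 0.72 and 0.91 within the same-number pairs. The G1 and S phase genes Ccne1, Ccne2, Cdk2 and Cdk4 differed by -0.19 to 0.21, and none passed. Of the 2 CDK inhibitors, Cdkn1a (p21) differed by 0.16 ± 0.15 and Cdkn1b (p27) by 0.72 ± 0.37. Cdkn1b was at 10.74 in wild-type replicate 3 and between 8.49 and 9.18 in the other 14 arrays.

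Of the 13 replication genes 2 rose, Gmnn and Esco2. Gmnn, geminin, which holds back licensing until division is over, read 10.09, 9.85 and 10.07 with EGFP and 10.56, 10.51 and 10.78 with wild-type IRE1a. The change of 0.61 ± 0.14 (adjusted p = 0.0140) was the smallest of the 13 rises, in groups that did not overlap. Esco2, which acetylates cohesin in S phase, read 3.85, 3.55 and 4.72 with EGFP and 5.73, 6.04 and 7.92 with wild-type IRE1a, a change of 2.52 ± 0.58 (adjusted p = 0.0152). EGFP replicates 1 and 2 lie below the limit of 4 set for a signal, so the size of this change is uncertain. With signals below 4 raised to 4 it was 2.32 (adjusted p = 0.0233). Cdc6, which loads the helicase, differed by 1.23 ± 0.38 (adjusted p = 0.0659, blocked 0.00181). Mcm4 and Mcm6 were the 2 genes that fell with the replicate block, by 0.49 and 0.43 (adjusted p = 0.0341 and 0.0268). Unblocked they had adjusted p = 0.163 and 0.127, although all 3 wild-type arrays lay below all 3 EGFP arrays in both. The licensing factor Cdt1 differed by -0.37 ± 0.24, E2f1 by 0.06 ± 0.19, the sliding clamp Pcna by -0.09 ± 0.18 and the ribonucleotide reductase subunit Rrm2 by 0.37 ± 0.38.

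Single arrays moved the unblocked count of 13. Without EGFP replicate 1, 2 or 3 it was 4, 0 or 7, without wild-type replicate 2 or 3 it was 5 or 1, and without wild-type replicate 1 it was 22. Without EGFP replicate 2 the 13 genes had adjusted p from 0.0561 to 0.188 and changes from 0.54 to 2.43. Without wild-type replicate 3 Aurkb alone remained (adjusted p = 0.0437), with changes from 0.53 to 1.85. With all 3 number 3 arrays of the 48-hour groups left out together, an alternative chosen after the data were seen, 12 of the 13 genes remained, and 15 genes rose in all. Gmnn was the gene lost (adjusted p = 0.137). Calls over all genes in that fit are given only as a total, in the last section.

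The S724A form was set against the same EGFP arrays, to see what the virus with the altered serine changed. On the probe sets used, the genes of mitosis had positive differences in 20 of 21 cases, with a median of 1.09. None of the 21 passed the unblocked test. Over all genes 7852 of 16294 differences were positive. Other probe sets of Tpx2, Top2a and Cenpa went down to -0.62, -0.24 and -0.195 and did not pass. Of the 2 of Cenpf bright enough to test, 1 passed, at -0.48, and the other differed by 0.83. Of the 44 genes, 2 rose and 0 fell, both that rose being licensing regulators, against 3.87% and 2.25% of all genes. Rises made up 63.3% of all calls (48.4% after quantile normalisation, 68.3% after median centring). With the replicate block 21 rose and 1 fell, against 8.89% and 5.52% of all genes, and 15 of the 21 that rose were genes of mitosis. The median change over the 44 genes was 0.65, against -0.01 over all genes.

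Cdc6, the helicase loader, read 8.27, 8.55 and 8.60 with EGFP and 9.36, 10.18 and 9.99 with S724A IRE1a, a change of 1.37 ± 0.38 (2.58-fold, adjusted p = 0.0480). Gmnn read 10.46, 10.56 and 10.54 with S724A IRE1a, against 9.85 to 10.09 with EGFP, a change of 0.52 ± 0.14 (adjusted p = 0.0420). In both genes the groups did not overlap. In 15 genes all 3 S724A arrays lay above all 3 EGFP arrays, against 16.5% of all genes, and in 7 they lay below, against 16.8%. All 3 same-number pairs were higher in 25 genes and lower in 9, again without a count over all genes. At an unadjusted p under 0.05, 21 genes were higher and 2 lower, against 12.2% and 11.8% of all genes.

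Ube2c and Birc5 had the largest differences among the genes of mitosis. Ube2c read 6.39, 6.97 and 9.22 with S724A IRE1a against 5.44, 5.46 and 5.93 with EGFP (1.92 ± 0.66, adjusted p = 0.0993, blocked 0.00776). Birc5 read 6.26, 6.69 and 8.82 against 5.67, 4.84 and 5.99 (1.76 ± 0.60, adjusted p = 0.0957, blocked 0.00799). In these 2 genes replicate 3 lay far above the other arrays of its group. Next came Mki67 at 1.53 ± 0.61 (adjusted p = 0.148, blocked 0.0125), Cdc20 at 1.43 ± 0.44 (adjusted p = 0.0696, blocked 0.00836) and Cenpa at 1.42 ± 0.45 (adjusted p = 0.0733, blocked 0.00982). Ccnd1 read 7.51, 8.56 and 8.39 against 6.86, 7.63 and 7.68, and passed with the block alone (0.77 ± 0.31, adjusted p = 0.154, blocked 0.000737). The gene that fell with the block was Mcm5, a helicase subunit, at 9.65, 9.71 and 9.998 against 10.54, 10.21 and 10.60 (-0.66 ± 0.29, adjusted p = 0.187, blocked 0.0268).

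**Figure D4:**
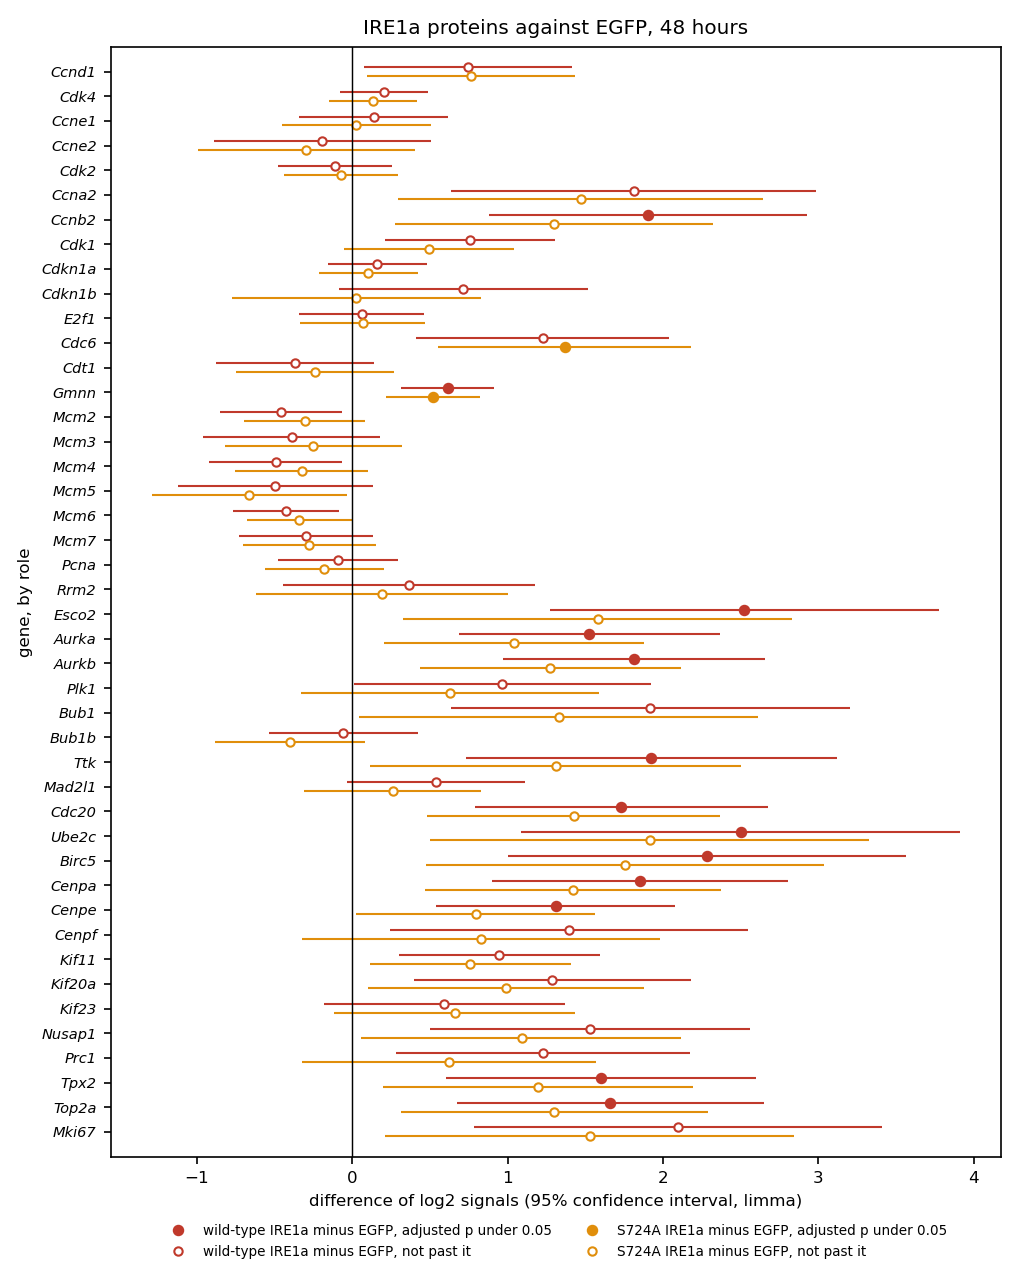
Difference of log2 signals from EGFP for each of the 44 genes after 48 hours, for wild-type IRE1a (red) and S724A IRE1a (orange), with 95% confidence intervals from limma; filled points have an adjusted p under 0.05 without the replicate block (13 red and 2 orange). Genes of mitosis lie to the right of 0 for both viruses, except Bub1b, and the MCM genes lie to its left. Both comparisons use the same 3 EGFP arrays.

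The 2 rises with S724A IRE1a were close to the threshold. Neither remained without EGFP replicate 1, 2 or 3, without S724A replicate 2 or 3, or without wild-type replicate 1 or 2, where adjusted p ran from 0.0515 to 0.179. The count was 4 without S724A replicate 1, 5 without wild-type replicate 3, and 1 without control hairpin replicate 1 or any 1 of the 3 IRE1a hairpin arrays. With the 3 number 3 arrays left out together 2 genes rose, Esco2 and Aurkb (adjusted p = 0.0275 and 0.0477), and Gmnn and Cdc6 did not pass (adjusted p = 0.153 and 0.196). After quantile normalisation the count was 0 (adjusted p = 0.0654 for Gmnn and 0.0665 for Cdc6).

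Wild-type and S724A IRE1a were compared with each other directly, since both comparisons above share the EGFP arrays. No gene of the 44 passed with or without the block, and 0 of the 44 had an unadjusted p under 0.05. Over all genes too 0% rose and 0% fell with limma, although 578 (3.55%) were higher and 419 (2.57%) lower at an unadjusted p under 0.05. The wild-type group had the higher mean in 33 of the 44 genes, and in 9276 of all 16294 genes. The median difference was 0.29 over the 44 genes, against 0.025 over all genes. All 3 same-number pairs were higher with wild-type IRE1a in 29 genes and lower in 3, which was not counted over all genes. Without the block, the 95% confidence intervals of the 44 genes in a comparison had a median half-width of 0.79.

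The largest difference was in Esco2, at 5.73, 6.04 and 7.92 with wild-type and 4.86, 4.93 and 7.07 with S724A IRE1a. That was 0.94 ± 0.58 (95% interval -0.31 to 2.19, adjusted p = 0.857), and the groups overlapped through S724A replicate 3. Cdkn1b read 8.76, 8.73 and 10.74 with wild-type and 8.51, 8.72 and 8.94 with S724A IRE1a. Its difference of 0.69 ± 0.37 (interval -0.11 to 1.49) came with the single high array. Ttk read 5.84, 6.47 and 8.24 against 5.15, 5.94 and 7.61, in overlapping groups. It differed by 0.62 ± 0.56 (interval -0.58 to 1.81), its pairs by 0.70, 0.52 and 0.63. Aurkb differed by 0.54 (interval -0.30 to 1.38) and Cdc20 by 0.31 (interval -0.64 to 1.25). Cdc6 was the other way, at -0.14 (interval -0.96 to 0.67).

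Control hairpin cells with glucagon were set beside EGFP cells to place the hairpin arm on the same scale. These groups differ in virus, in hours and in glucagon at once, and the parts of the 3 cannot be told apart. Here the genes of DNA replication were lower and the genes of mitosis, on the probe sets used, were not. Of the 44 genes 14 fell and 0 rose, against 6.74% and 9.34% of all genes. Rises made up 58.1% of all calls (45.2% after quantile normalisation, 66.3% after median centring), and with those scalings 16 and 12 of the 44 genes fell. The 14 comprised 11 of the 13 licensing and DNA synthesis genes and Ccne1, Ccne2 and Cdk2, the cyclins and kinase of S phase entry. None of the 21 genes of mitosis passed on the probe set used, and their median difference was 0.24. It was -0.84 for the 13 replication genes and -0.055 for all genes. By probe set, 2 of the 4 of Tpx2 passed, with differences from -0.61 to 0.24. Of the 2 of Cenpf bright enough to test, 1 passed, at -0.38, and the other differed by 0.10. In 11 of the 44 genes all 3 control hairpin arrays lay below all 3 EGFP arrays, against 19.6% of all genes.

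**Figure D5:**
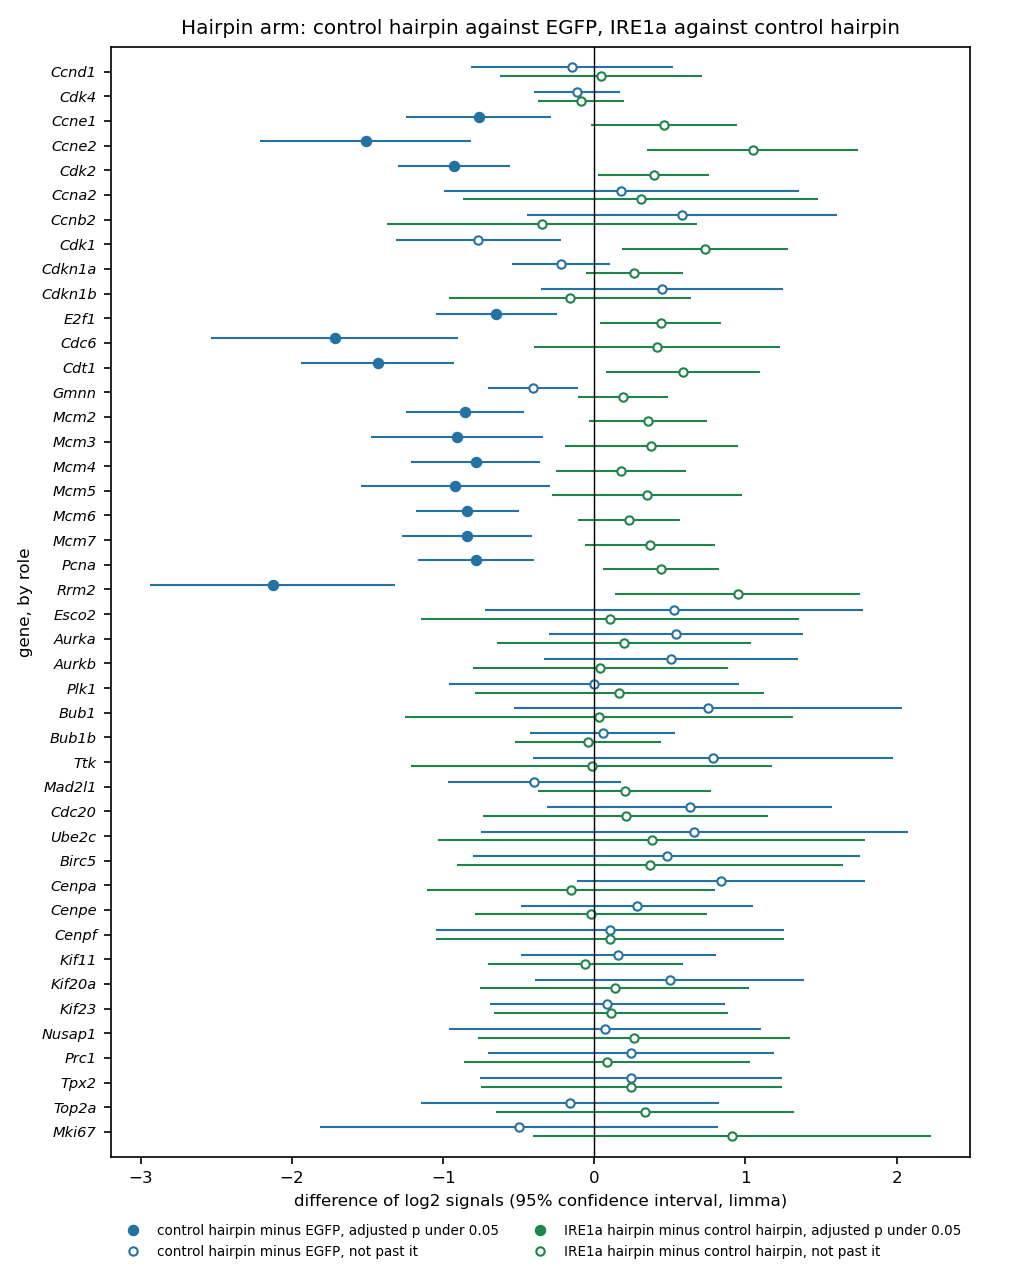
Difference of log2 signals for each of the 44 genes, control hairpin with glucagon minus EGFP (blue) and IRE1a hairpin minus control hairpin (green), with 95% confidence intervals from limma; filled points have an adjusted p under 0.05 without the replicate block. The 14 filled blue points are replication and S phase entry genes, from -2.13 for Rrm2 to -0.65 for E2f1, and no green point is filled. Both comparisons use the same 3 control hairpin arrays.

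The largest fall was in Rrm2, which makes deoxynucleotides, at 12.41, 12.50 and 13.001 with EGFP and 9.67, 10.52 and 11.34 with the control hairpin. It fell by 2.13 (SE 0.38, 4.37-fold, adjusted p = 0.00244), in groups that did not overlap. Cdt1, which brings the helicase to origins, read 12.66, 12.60 and 12.62 against 10.75, 10.86 and 11.97, a change of -1.43 ± 0.24 (adjusted p = 0.00154). Its control hairpin replicate 3 lay above the others and still below every EGFP array. Cdc6 read 8.27, 8.55 and 8.60 against 6.22, 6.19 and 7.87 (-1.72 ± 0.38, adjusted p = 0.00809). Ccne2, a cyclin of S phase entry, read 11.42, 11.69 and 12.04 against 9.37, 10.12 and 11.13 (-1.51 ± 0.33, adjusted p = 0.00685).

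Smaller falls were seen in the helicase and its partners. Cdk2 read 10.59, 10.53 and 10.59 with EGFP and 9.42, 9.46 and 10.04 with the control hairpin (-0.93 ± 0.17, adjusted p = 0.00300). Mcm6, whose promoter is printed above with that of Cdk2, read 12.52, 12.40 and 12.51 against 11.44, 11.41 and 12.06 (-0.84 ± 0.16, adjusted p = 0.00335). In both genes the EGFP arrays were close together, and replicate 3 of the control hairpin was the nearest to them. Mcm2 read 10.69, 10.31 and 10.49 against 9.31, 9.48 and 10.14 (-0.85 ± 0.18, adjusted p = 0.00649). Pcna, the sliding clamp of the polymerases, read 13.76, 13.64 and 13.74 against 12.66, 12.65 and 13.49 (-0.78 ± 0.18, adjusted p = 0.00966). The remaining 6 that fell were Mcm7, Mcm4, Mcm3, Mcm5, E2f1 and Ccne1, by 0.65 to 0.92 (adjusted p from 0.0119 to 0.0467), and the groups overlapped in Mcm5, E2f1 and Ccne1. Of the replication genes that did not pass, Gmnn differed by -0.41 ± 0.14 (adjusted p = 0.0635) and Esco2 by 0.53 ± 0.58. The probe sets of Rrm2, Cdt1, Mcm2, Mcm3, Mcm4, Mcm6 and Mcm7 that were bright enough to test all passed, while 1 of 3 passed for Mcm5.

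Among genes outside replication, Cdk1 differed by -0.77 ± 0.26 (adjusted p = 0.0555) and Mki67 by -0.50 ± 0.61. Cenpa, at 6.79, 6.46 and 6.18 against 5.76, 5.56 and 5.59, was the furthest above EGFP (0.84 ± 0.45, adjusted p = 0.207). Its groups did not overlap.

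Control hairpin replicate 3 was the highest of its group in all 13 replication genes, with a level of 0.03 against -0.78 and -0.79 in replicates 1 and 2. Without it 16 genes fell and the 14 had adjusted p of at most 0.00124. Without control hairpin replicate 1 or 2 the count was 7 or 9, and the calls lost were among Pcna, Mcm7, Mcm4, Mcm3, Mcm5, E2f1 and Ccne1 (adjusted p up to 0.187). Without any 1 EGFP array it was 10. With the 3 number 3 arrays of the 48-hour groups left out, 9 fell and 5 rose: Cdkn1b, Esco2, Bub1, Ttk and Cenpa, by 0.52 to 1.03 (adjusted p from 0.0301 to 0.0400). The total of all genes called in that fit is in the last section, without its rises and falls apart.

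The IRE1a hairpin was compared with the control hairpin, both with glucagon, to ask what knocking down IRE1a changed. No gene of the 44 passed, against 0.0491% of all genes that rose and 0.184% that fell. Rises made up 21.1% of all calls (34.6% after quantile normalisation, 13% after median centring). The replication genes had positive differences in 13 of 13 cases, with a median of 0.37, and the genes of mitosis had a median of 0.135. Over all genes 8942 of 16294 differences were positive, with a median of 0.021. At an unadjusted p under 0.05, 7 of the 44 genes were higher and 0 lower, against 4.07% and 3.66% of all genes. With the replicate block 2 rose and 0 fell, Ccne2 (adjusted p = 0.0243) and Rrm2 (adjusted p = 0.0443), against 0.534% and 0.694% of all genes.

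Ccne2 read 10.81, 11.55 and 11.40 with the IRE1a hairpin against 9.37, 10.12 and 11.13 with the control hairpin, a difference of 1.05 ± 0.33 (unblocked adjusted p = 0.381). Its pairs differed by 1.44, 1.43 and 0.27. Rrm2 read 10.81, 12.09 and 11.48 against 9.67, 10.52 and 11.34 (0.95 ± 0.38, adjusted p = 0.586), its pairs differing by 1.14, 1.57 and 0.13. In both genes the third pair was the closest, and the groups overlapped through control hairpin replicate 3. Mki67 read 7.16, 7.41 and 7.28 against 6.11, 5.41 and 7.60 (0.91 ± 0.61, adjusted p = 0.734). Cdk1 was the 1 gene of the 44 whose groups did not overlap, though its closest arrays met at the second decimal. Over all 16294 genes, groups lay apart in 986 that were higher and 895 that were lower. Cdk1 read 9.41, 9.69 and 9.48 against 8.76, 8.22 and 9.41 (0.73 ± 0.26, adjusted p = 0.477). Without control hairpin replicate 3, 4 of the 44 genes rose: Cdt1, Ccne2, Pcna and Ccne1, by 0.72 to 1.51 (adjusted p from 0.00790 to 0.0462). The share of all genes that rose in that fit is not set beside this count.

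The pathway around these genes was read from further lists, chosen with earlier results of these data known. Counts in these lists and in the markers below are to be read against the shares of all genes. With wild-type IRE1a 5.08% of all genes rose and 2.59% fell, or 10.6% and 4.99% with the block. With S724A IRE1a these shares were 3.87% and 2.25%, or 8.89% and 5.52% with the block. In control hairpin cells against EGFP cells they were 9.34% and 6.74%. Between the hairpins they were 0.0491% and 0.184%, or 0.534% and 0.694% with the block. Of 59 other genes of mitosis tested, 9 rose and 1 fell with wild-type IRE1a, and 34 rose and 1 fell with the block, with a median of 0.74. The 4 with the smallest p were Pttg1 (securin, 0.59 ± 0.11, adjusted p = 0.00421), the condensin subunit Ncapd2 (1.00 ± 0.20, adjusted p = 0.00665), Cdca5 (sororin, which protects cohesion, 2.34 ± 0.51) and the kinetochore protein Nuf2 (2.28 ± 0.56). Cdca5 lost its call without EGFP replicate 2 (adjusted p up to 0.0552) and Nuf2 without wild-type replicate 3 or either of EGFP replicates 1 and 2 (adjusted p up to 0.0962). With S724A IRE1a 1 of the 59 rose, Pttg1 by 0.45 ± 0.11, and with the block 22 rose and 1 fell. The unblocked Pttg1 call was lost when EGFP replicate 2 or 3, or an S724A array, was left out (adjusted p up to 0.108). With the control hairpin Pttg1 rose and Ccnf and Cenpk fell, each call being lost without control hairpin replicate 1 among others (adjusted p up to 0.126, 0.0649 and 0.0723). None passed between the hairpins.

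Of 53 other genes of DNA replication and S phase entry, 34 fell and 0 rose in control hairpin cells against EGFP cells. Their median was -0.85, and over all genes 6.74% fell and 9.34% rose. The 34 were led by the polymerase subunit Pole2 (-1.37 ± 0.16, adjusted p = 0.000132), the primase Prim1 (-1.65 ± 0.20, adjusted p = 0.000169), the uracil glycosylase Ung (-1.19 ± 0.17) and the chromatin assembly factor Chaf1b (-1.63 ± 0.25). These 4 passed whichever array was left out. With wild-type IRE1a 1 of the 53 rose and 1 fell, Fen1 (0.69 ± 0.17) and Uhrf1 (-1.35 ± 0.33), and with S724A IRE1a Uhrf1 fell (-1.20 ± 0.33). With the block 4 rose and 1 fell with wild-type IRE1a, and 1 rose and 2 fell with S724A IRE1a. The 3 unblocked calls were lost without each of 3, 5 and 11 arrays in turn (adjusted p up to 0.105, 0.0769 and 0.128). Between the hairpins 0 passed (1 rose with the block), and the median was 0.40.

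Of 24 other cyclins, CDKs, inhibitors and pocket proteins, Cks1b, which binds CDKs and their ubiquitin ligase, rose with both viruses. Its change was 1.39 ± 0.15 with wild-type IRE1a (adjusted p = 3.56e-05) and 1.37 ± 0.15 with S724A IRE1a (adjusted p = 4.26e-05), and both held whichever array was left out. Cks1b rose in control hairpin cells against EGFP cells too, by 0.54 ± 0.15 (adjusted p = 0.0231). In all 3 rose and 1 fell with wild-type IRE1a, and 7 and 2 with the block. With S724A IRE1a 2 rose and 1 fell, and 4 and 1 with the block. Between the hairpins 0 passed, and Skp2, Rb1 and Ccnd3 rose with the block. The one that fell was Wee1, the kinase that restrains CDK1, by 0.93 with wild-type (adjusted p = 0.0224) and 0.94 with S724A IRE1a (adjusted p = 0.0267). Wee1 lost its call without EGFP replicate 1 or 2 or without replicate 3 of the IRE1a group (adjusted p up to 0.0962 and 0.115). It fell in control hairpin cells against EGFP cells too (-0.80 ± 0.23, adjusted p = 0.0302). In control hairpin cells 4 of the 24 rose and 6 fell, against 9.34% and 6.74% of all genes. Rbl2 (p130, the pocket protein of quiescent cells, 1.38 ± 0.25, adjusted p = 0.00251) and Ccng2 (cyclin G2, found in arrested cells, 2.05 ± 0.37, adjusted p = 0.00259) led on the one side. On the other were Cdkn2c (-1.22 ± 0.26) and Skp2 (-0.95 ± 0.22), and of these 4 only Skp2 lost its call with an array left out (control hairpin replicate 1, adjusted p = 0.0538). Ccng2 was also higher with wild-type IRE1a than with EGFP, by 1.04 (adjusted p = 0.107, blocked 0.00436). Of 18 p53 target genes 0 passed with wild-type IRE1a (1 rose and 3 fell with the block), 1 fell with S724A IRE1a (Perp; 2 with the block), and 2 fell with the control hairpin (Aen and Fas). Between the hairpins 0 passed, and Fas rose with the block. The 3 unblocked calls were lost with single arrays left out, Perp without any 1 of 10 (adjusted p up to 0.135), and Aen and Fas without EGFP replicate 3 or control hairpin replicate 1 (up to 0.0777 and 0.107), Fas also without EGFP replicate 1.

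Markers of other liver cells were set beside these counts. In the wild-type and S724A groups 1 of the 9 stellate and fibroblast markers fell, Vim (vimentin), by 1.57 and 1.42 (adjusted p = 0.00900 and 0.0206). With S724A IRE1a that call was lost without EGFP replicate 2 or 3 or S724A replicate 1 or 3 (adjusted p up to 0.0796). The log2 of the list's summed signal, mostly Vim, was 11.09 to 11.48 with EGFP, 9.95 to 10.35 with wild-type and 10.02 to 10.41 with S724A IRE1a. The median change over the 9 markers was -0.14 with wild-type and -0.19 with S724A IRE1a. Lum was near background at a mean of 3.97. The 8 macrophage markers summed to 11.72 to 11.92, 12.14 to 12.24 and 11.93 to 12.15, mostly Cd68, with Vsig4 and Marco at means of 4.33 and 4.73; 0 of them passed with either virus, and with the block Cd68 rose with wild-type IRE1a (0.41, blocked adjusted p = 0.0124). No endothelial, cholangiocyte or lymphocyte marker passed with either virus, with 9, 5 and 6 tested. With the block the cholangiocyte and progenitor markers Krt19 and Prom1 fell with both viruses, by 0.51 and 0.77 with wild-type and 0.48 and 0.90 with S724A IRE1a. With S724A IRE1a the lymphocyte marker Nkg7 and the fibroblast marker Col1a2 fell as well, by 0.47 and 0.41 (blocked adjusted p = 0.0441 and 0.0443). Of 9 hepatocyte markers Cyp2e1 fell with both (-2.28 ± 0.43 and -1.77 ± 0.43), and Hnf4a rose with wild-type IRE1a (0.74 ± 0.18, adjusted p = 0.0237). Hnf4a was lost without wild-type replicate 2 or 3, and without EGFP replicate 2 (adjusted p up to 0.126). Cyp2e1 with S724A IRE1a was lost without any EGFP array or S724A replicate 2 or 3 (up to 0.0998). With the block Tat rose with both viruses, and Hnf4a with S724A IRE1a too.

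In control hairpin cells against EGFP cells, where the replication genes fell, 8 markers passed. The lists tested held 9 hepatocyte, 8 macrophage, 9 endothelial, 9 stellate, 5 cholangiocyte and 6 lymphocyte markers. Over all genes 9.34% rose and 6.74% fell in this comparison. Of the hepatocyte markers Asgr1 and Cyp2e1 fell (-0.86 ± 0.16 and -1.86 ± 0.43) and Tat, a gene that glucagon is known to induce, rose (1.15 ± 0.27). Without glucagon, Tat also rose with the block, by 0.47 with wild-type and 0.78 with S724A IRE1a against EGFP. The part of glucagon in the rise of Tat was not tested. Of the endothelial markers Tek fell (-0.67 ± 0.16) and Cdh5 rose (0.64 ± 0.18). The stellate markers Reln and Acta2 fell (-0.49 ± 0.11 and -0.45 ± 0.13), and Cdh1, listed with the cholangiocyte markers, rose (0.82 ± 0.27). All but Asgr1 and Cyp2e1 lost their call with single arrays left out (adjusted p up to 0.188). The summed macrophage signal was 11.2 to 11.74 against 11.72 to 11.92, and the stellate sum 10.64 to 11.81 against 11.09 to 11.48. Between the hairpins no marker passed, with or without the block. The part of these marker differences in the changes of the cell cycle genes was not tested.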

How the data were processed

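Total RNA of 15 hepatocyte samples was hybridised to 1 array each. The authors deposited 1 log2 signal for each probe set and array, made with GCRMA per the submitters' processing notes. No GCRMA version is named there, and the log2 scale was read from the values. GCRMA adjusts background by probe sequence, which makes dim signals the least certain. Of 45101 probe sets, 34945 had 1 gene symbol in the platform annotation, 932 had several, 9160 had none and 64 were controls; 34741 matched a RefSeq gene number on GRCm38.p6. The brightest probe set stood for a gene, and 16294 of 18193 genes with a signal of 4 in at least 3 arrays were tested.

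A linear model with 5 group means was fitted to all 15 arrays in R 4.3.3 with limma 3.58.1 (lmFit, eBayes, 10 residual degrees of freedom). All p-values are two-sided, with Benjamini-Hochberg adjustment over all genes of a comparison and a threshold of 0.05; rose and fell are used for genes past it. The fit was checked on simulated data with independent noise in each array, so the check does not cover arrays that deviate together. Array number limits the precision: over the 44 genes, 95% intervals reached 0.79 to either side in the median. Groups are those of the labels, whose replicate numbers name no experiment. Deviations from the group means of same-number arrays correlated within an arm in 12 of 12 pairs (r from 0.20 to 0.69) and exceeded 0.1 across the arms in 4 of 18, so the numbers were taken to pair arrays within an arm.

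The genes and lists were chosen with earlier results of these data known. All 44 genes are named by role; array values are given for up to 8 called genes by smallest p in a comparison, or for the 3 largest differences where none was called, and for up to 4 called genes of other lists a change is given. Genes given array values beyond that rule (Plk1 and Mki67 with wild-type IRE1a, Ube2c, Birc5, Ccnd1 and Mcm5 with S724A IRE1a, Cenpa with the control hairpin, Cdk1 between the hairpins) were picked after their values were seen. Alternatives were other scalings, filters, probe set rules and variance models, the 6 arrays of a comparison alone, the replicate block, and each array left out.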

Additional observations from a re-analysis of the deposited data

How the results depend on the processing

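No change of direction occurred among the called genes under any alternative run. With replicate numbers as blocks inside each arm, genes called numbered 2539 for wild-type IRE1a against EGFP (1250 without it), 2347 for S724A IRE1a (997), 2 for wild-type against S724A IRE1a (0) and 200 between the hairpins (38). Among the 44, wild-type IRE1a gave 24 rises and 2 falls, 21 rose and 1 fell with S724A IRE1a, and 2 rose between the hairpins. With a block over all 15 arrays, 21 rose with wild-type and 12 with S724A IRE1a, with 1510 genes called for S724A IRE1a and 64 between the hairpins. Across the arms the numbers do not pair arrays; the block left control hairpin against EGFP at 16 falls.

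The 44 genes' rises were 7 with wild-type and 1 with S724A IRE1a under robust variances, and with S724A IRE1a 0 after quantile normalisation and 1 without a filter or with a floor at 4. With the 6 arrays of a comparison alone, 2 fell with wild-type and 1 with S724A IRE1a, 4 rose with the control hairpin, and 5 genes were called between the hairpins. A variance trend called 2 genes between wild-type and S724A IRE1a, and median centring called 23 between the hairpins.

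Leaving out the number 3 arrays of the 48-hour groups was chosen after seeing the data. Genes called were then 560 for wild-type IRE1a, 425 for S724A IRE1a, 25 between the hairpins and 1511 for control hairpin against EGFP (2620 with all arrays), where 5 of the 44 rose and 9 fell. With the block as well, 20 of the 44 rose with wild-type IRE1a, 8 with S724A IRE1a and 1 between the hairpins. Between the hairpins 203 genes were called. For control hairpin against EGFP, which crosses the arms, the block ran over all arrays kept, and 6 rose. Across the arms the numbers do not pair arrays.

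With each array left out in turn, rises among the 44 ranged from 0 to 22 with wild-type IRE1a, 0 to 5 with S724A IRE1a, 0 to 4 between the hairpins and 0 to 1 with the control hairpin. Falls ranged from 0 to 2, 0 to 1, 0 to 0 and 7 to 16. Genes called ranged from 715 to 1362, 485 to 1220, 13 to 75 and 1330 to 2929, and from 0 to 1 between wild-type and S724A IRE1a. The cause of these shifts was not tested. Signals near the bottom of the scale, as of Esco2 and Bub1 with EGFP, limit how well their changes are measured.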
